A study of Mus musculus with 4 samples.

Results

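The 4 HSC libraries of this RNA-Seq study carry a letter, A or B, and each genotype has 1 library of each letter. Here the 2 letter B libraries were compared with the 2 letter A libraries, with genotype as a term, so that the effect of the genotype itself is set aside. The fitted difference is the mean of those within Id2+/+ and within Id2Δ/Δ HSCs. A difference present in a single genotype therefore also counts in part. All 4 of the 4 libraries entered, and of 19354 listed genes the 15895 with a mean of 1 CPM or more over the libraries were compared, CPM being counts scaled to one common library total.

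The HSCs, the stem cells of the blood system, were sorted by flow cytometry as LSK FLT3- CD48- CD150+ cells from mice aged 8 to 16 weeks, 2 weeks after pIpC. All mice carried Mx1-Cre, a Cre recombinase driven by an interferon-inducible promoter that pIpC switches on, and all received pIpC. The floxed Id2 alleles were deleted in the Id2Δ/Δ group (Mx1-Cre; Id2Fl/Fl), and the control group (Mx1-Cre; Id2+/+) had no floxed allele. RNA came from cells pooled from 14 Id2+/+ and 15 Id2Fl/Fl mice in 2 experiments. The labels do not say whether a letter marks an experiment, a sort or only a name, and the spread behind each p-value is that between these libraries alone. Because Mx1-Cre acts in other interferon-responsive cells too, deletion was not limited to HSCs.

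The libraries held 14200000 to 18800000 reads, as recovered from the deposited values, and 3 reads, taken here as the limit for a count of 0, came to 0.159 to 0.211 CPM. These limits cover counting error only. Fold differences given below as at least a value leave out the counting error of the library that had reads. Id2 was counted 93 and 98 times in the Id2+/+ libraries of letters A and B and 0 times in both Id2Δ/Δ libraries, which fits the genotype labels in each letter. Of the 34 HSC genes on a marker list, 34 were listed and tested, and their summed level was 6590 to 8280 CPM. The library correlations across genes did not group the letters, with r = 0.972 within Id2+/+ and 0.942 within Id2Δ/Δ HSCs, and r = 0.964 within letter B and 0.953 within letter A.

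Immediate early genes are the first genes that a cell transcribes after a stimulus, without new protein synthesis. Most encode transcription factors, such as the Fos and Jun subunits of AP-1, or proteins that end the same signals, such as phosphatases that inactivate MAP kinases and proteins that degrade short-lived mRNAs. They respond to growth factors, cytokines and stress, and they also respond to tissue dissociation and cell sorting. Neutrophils, the most abundant granulocytes of bone marrow, carry very large amounts of a few mRNAs for granule proteins, made in a fixed order from promyelocyte to mature cell.

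At an adjusted p-value under 0.05 in limma, 15 of the 30 tested immediate early genes were called higher in letter B than in letter A. Of the 14 tested neutrophil markers 3 were called lower. With limma, 27 genes were higher in letter B (0.17% of the 15895 tested) and 3 were lower (0.0189%), each at an adjusted p-value under 0.05. Of the 27, 15 belong to a list of 33 immediate early genes, and all 3 lower genes belong to a list of 20 neutrophil markers. The values of all 30 genes in each library stand apart by letter in the plot of called genes.

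**Figure D1:**
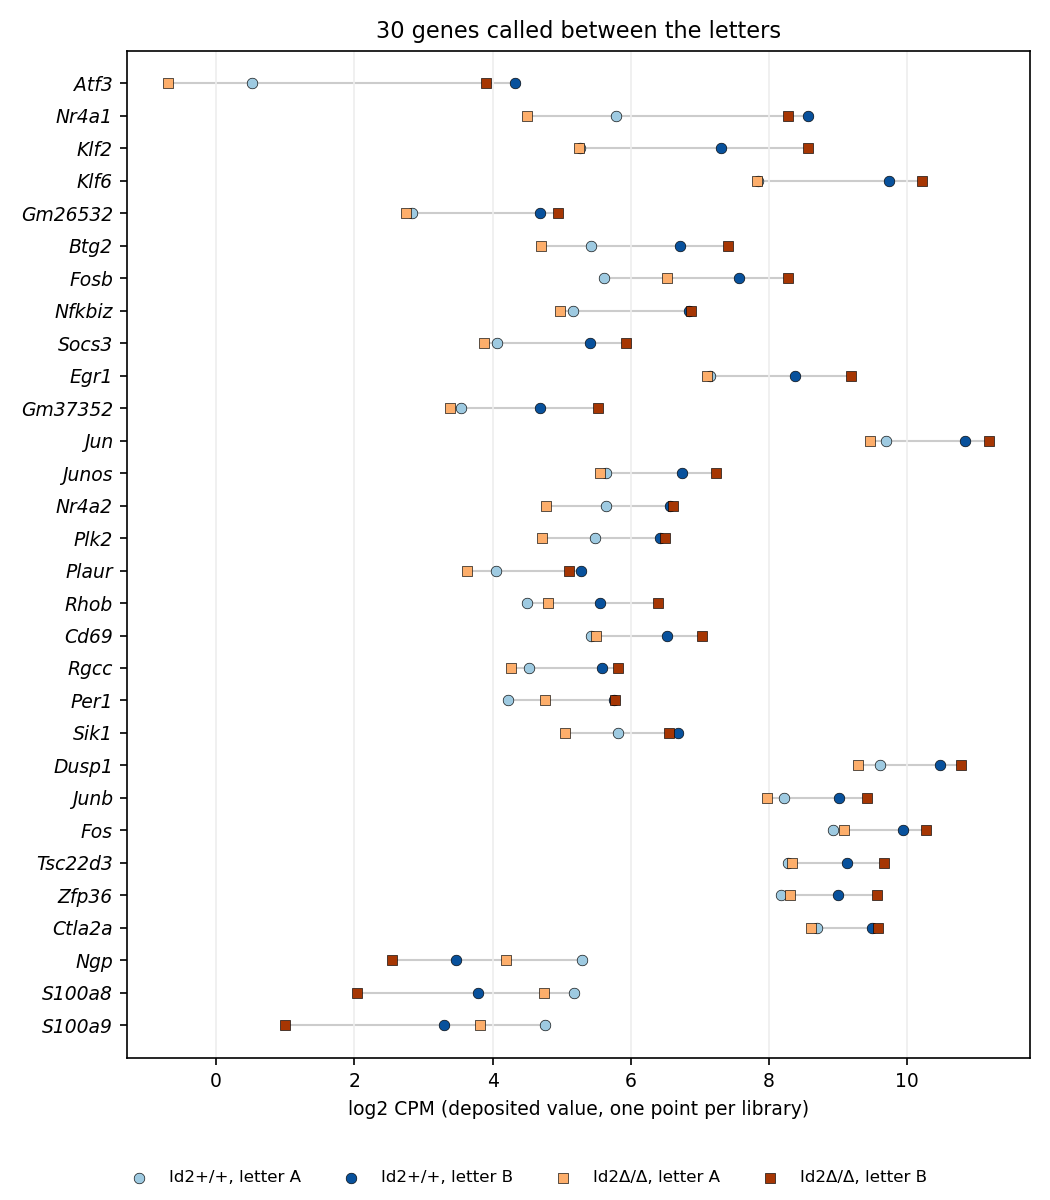
Deposited log2 CPM (x axis) of the 30 genes called between the letters (y axis, ordered by the fitted difference), one point per library, with circles for Id2+/+ and squares for Id2Δ/Δ HSCs and dark colours for letter B. For the 27 upper genes both letter B points lie to the right of both letter A points, and for Ngp, S100a8 and S100a9 both lie to the left.

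The calls rest on few degrees of freedom. With 1 residual degree of freedom per gene, limma borrows the spread from all genes through an intensity trend, and without that trend 0 genes were called by limma, with 439 higher and 374 lower at an unadjusted p-value under 0.05. Fits with 1 library left out, here and below, had no genotype term, so their letter difference also holds part of the difference between genotypes. The direction of all 30 called genes was kept in them. This direction could not turn, since both letter B values of each gene lay on the same side of both letter A values.

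Promoter sequences are shown for 4 of the 27 higher genes, because the cyclic AMP response element (CRE, TGACGTCA) and its TGACG core are textbook elements of immediate early promoters. The windows are RefSeq's for GRCm38.p6 and run from 250 bases before to 50 bases after a start site, and cores on either strand are in capitals, which makes a whole CRE one run of 8 capitals. The first window has the largest change of the 4 genes and no whole CRE, and the other 3 hold the whole element.
Nr4a1, chr15:101266596-101266895, plus strand: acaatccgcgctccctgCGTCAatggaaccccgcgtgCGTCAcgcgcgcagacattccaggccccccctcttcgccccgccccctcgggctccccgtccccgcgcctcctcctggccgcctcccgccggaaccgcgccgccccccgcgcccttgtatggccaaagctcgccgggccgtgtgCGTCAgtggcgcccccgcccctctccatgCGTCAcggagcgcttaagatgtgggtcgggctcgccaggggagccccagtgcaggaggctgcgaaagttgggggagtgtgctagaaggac
Dusp1, chr17:26508423-26508722, minus strand: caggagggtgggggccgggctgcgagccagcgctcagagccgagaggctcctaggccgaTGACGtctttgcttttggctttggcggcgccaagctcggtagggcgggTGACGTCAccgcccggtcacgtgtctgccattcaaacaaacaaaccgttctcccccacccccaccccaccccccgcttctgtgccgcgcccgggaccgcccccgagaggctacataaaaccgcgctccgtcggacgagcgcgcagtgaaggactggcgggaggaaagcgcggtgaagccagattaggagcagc
Btg2, chr1:134079106-134079405, minus strand: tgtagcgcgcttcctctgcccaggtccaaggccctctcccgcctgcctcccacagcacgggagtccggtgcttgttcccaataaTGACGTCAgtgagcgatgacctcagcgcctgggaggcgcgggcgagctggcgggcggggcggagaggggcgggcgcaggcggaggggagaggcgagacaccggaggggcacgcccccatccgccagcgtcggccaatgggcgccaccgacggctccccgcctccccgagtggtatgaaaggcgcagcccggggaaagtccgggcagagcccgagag
Plk2, chr13:110394794-110395093, plus strand: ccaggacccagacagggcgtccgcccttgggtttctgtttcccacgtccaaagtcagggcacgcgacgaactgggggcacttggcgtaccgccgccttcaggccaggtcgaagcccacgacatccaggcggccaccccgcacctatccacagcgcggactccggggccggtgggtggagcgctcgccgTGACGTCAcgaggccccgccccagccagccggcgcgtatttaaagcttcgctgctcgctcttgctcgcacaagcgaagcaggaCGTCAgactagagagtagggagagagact

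Of the 27 higher genes, 21 matched a window by symbol, as did 10265 of the tested genes. A whole CRE was found in 3 of the 21 and in 3.49% of the 10265, and a TGACG core, which also counts whole CREs, in 14 of the 21 and in 34.9%. The AP-1 site TGAGTCA was found in 3 of the 21 (4.35% of all), the TATA box TATAAA in 5 (8.6%), the CArG box in 1 (1.56%) and a kappa B site in 3 (8.21%), while the heat shock element (0.594% of all) and the glucocorticoid response element (0.205%) were found in 0. These matches describe letters in the windows and are not evidence of binding.

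Of the AP-1 subunits on the list, Jun, Fos, Fosb and Junb were called higher in letter B. Pairs of values are given below with Id2+/+ first and Id2Δ/Δ second, differences are letter B minus letter A on the log2 scale with the standard error (SE) of the fit over the 4 libraries, and adjusted p-values are those of limma. Jun was at 9.69 and 9.46 log2 CPM in letter A and at 10.84 and 11.18 in letter B, a difference of 1.44 ± 0.13 (SE; adjusted p = 0.000397). Fos, the usual partner of Jun, was at 8.92 and 9.08 in letter A and at 9.94 and 10.27 in letter B, a difference of 1.11 ± 0.11 (adjusted p = 0.000926). Fosb differed more, with 5.61 and 6.52 in letter A against 7.56 and 8.27 in letter B, or 1.85 ± 0.15 (adjusted p = 9.5e-05). For Junb the values of 8.22 and 7.97 in letter A and 9.01 and 9.42 in letter B gave 1.12 ± 0.15 (adjusted p = 0.00642). In all 4 genes the lower letter B value stood above the higher letter A value. The Fos relative Fosl2 (5.06 and 4.24 against 5.74 and 5.68) did not pass the test, with a difference of 1.06 ± 0.22 and an adjusted p of 0.157. Fosl1 was the only list member below 0 in the fit, at 1.68 and 1.62 in letter A and 1.22 and 1.26 in letter B, and Jund, with 2 to 6 reads a library, lay under the filter.

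Atf3 and the orphan nuclear receptor Nr4a1 had the largest differences of all called genes, and the other Nr4a receptors were also higher in both letter B libraries. Nr4a1 was at 5.79 and 4.50 log2 CPM in letter A and at 8.56 and 8.27 in letter B, which is 9.63-fold in the fit (3.27 ± 0.20, adjusted p = 1.1e-05). Nr4a2 rose from 5.64 and 4.77 to 6.57 and 6.61 (1.38 ± 0.21, adjusted p = 0.0176). Nr4a3 was far less abundant, with 4 and 0 reads in letter A and 31 and 37 in letter B, so that in Id2Δ/Δ HSCs letter B was at least 12.9-fold higher, and it did not pass the test (adjusted p = 0.671). Atf3, a stress-induced bZIP repressor, had 21 and 10 reads in letter A against 312 and 280 in letter B. On the log2 scale these were 0.52 and -0.69 against 4.32 and 3.91 CPM, or 18.4-fold in the fit (4.20 ± 0.47, adjusted p = 0.00157). No letter A library reached a letter B library for any of these 4 genes.

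Of the Klf and Egr zinc finger factors of the list, 3 were called higher in letter B. Klf6, a Krüppel-like factor, was at 7.84 and 7.83 log2 CPM in letter A, nearly the same in both genotypes, and at 9.74 and 10.21 in letter B (2.14 ± 0.14, adjusted p = 1.1e-05). Klf2, which maintains quiescence in lymphocytes, stood at 5.27 and 5.25 in letter A and at 7.30 and 8.56 in letter B (2.67 ± 0.24, adjusted p = 0.000271). Egr1, the early growth response factor, was at 7.15 and 7.11 against 8.37 and 9.19 (1.66 ± 0.18, adjusted p = 0.00106). For these 3 genes the letter A libraries of the genotypes nearly coincided, and the Id2Δ/Δ library was the higher one in letter B. Klf4 missed the threshold with 3.45 and 4.0 against 4.64 and 5.34 (1.26 ± 0.24, adjusted p = 0.0731). Egr2 and Egr3 lay under the filter, with 0 to 24 and 4 to 15 reads a library.

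Another 5 members of the list were called higher in letter B. Dusp1, the phosphatase that inactivates MAP kinases, was at 9.60 and 9.29 log2 CPM in letter A and at 10.47 and 10.78 in letter B (1.18 ± 0.14, adjusted p = 0.00265). Zfp36, which destabilizes AU-rich mRNAs, went from 8.17 and 8.30 to 9.0 and 9.56 (1.05 ± 0.13, adjusted p = 0.00493), and Socs3, an inhibitor of cytokine receptor signaling, from 4.06 and 3.88 to 5.41 and 5.93 (1.70 ± 0.23, adjusted p = 0.00656). Btg2, an antiproliferative gene, was at 5.42 and 4.70 against 6.71 and 7.40 (1.99 ± 0.26, adjusted p = 0.00541), and Rhob, a small GTPase, at 4.50 and 4.80 against 5.56 and 6.39 (1.33 ± 0.20, adjusted p = 0.0176). In each of the 5 genes both letter B libraries exceeded both letter A libraries. Dusp2 (7.44 and 7.26 against 7.82 and 7.74) and Ier2 (8.34 and 7.96 against 8.73 and 9.10) did not overlap between the letters but did not pass the test, at adjusted p-values of 0.64 and 0.157.

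The rest of the list varied. Myc was at 7.53 and 7.81 log2 CPM in letter A and 7.64 and 7.80 in letter B. Ier3 was at 6.18 and 5.83 against 6.17 and 6.21, and Gadd45b at 2.61 and 3.34 against 3.11 and 2.99. Ppp1r15a, a phosphatase subunit of the stress response, was at 8.44 and 7.68 against 8.34 and 8.82, lower in letter B in Id2+/+ and higher in Id2Δ/Δ HSCs. For these 4 genes the letters overlapped. Cyr61 had 7 and 0 reads in letter A and 21 and 87 in letter B, at least 29.5-fold more in Id2Δ/Δ HSCs, with an adjusted p of 0.715. Dusp5, Trib1, Maff and Ier5 also had both letter B values above both letter A values, with adjusted p-values of 0.562 to 0.888.

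Over the 30 tested members of the 33 listed, of which Nr4a3 and Cyr61 passed the filter only through letter B, 29 had a difference above 0 in the fit, 15 were called and 25 had both letter B values above both letter A values. Among all tested genes such a separation upward was found in 2556, or 16.1%, and downward in 2666, or 16.8%. A change upward of at least 1.5-fold in both genotypes was found in 19 of the 30 and in 378 (2.38%) of all genes, and one downward in 0 and in 325 (2.04%). The median difference of the list was 1.22 in the fit, 0.90 in Id2+/+ and 1.53 in Id2Δ/Δ HSCs, against -0.01 for all genes in each of these. With Nr4a3 and Cyr61 set to their lower bounds in Id2Δ/Δ HSCs, the median there was 1.52, and over the 28 members at 1 CPM or more in each letter the fitted median was 1.15. The larger difference in Id2Δ/Δ HSCs was not tested, since an interaction term would leave no residual. The summed level of the 33 genes was 4540 and 4040 CPM in letter A and 8920 and 11700 CPM in letter B.

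Outside that list, 12 genes were called higher in letter B. Nfkbiz, an atypical IκB protein that is itself induced through NF-κB, was at 5.17 and 4.98 log2 CPM in letter A and at 6.84 and 6.87 in letter B (1.78 ± 0.17, adjusted p = 0.000443). Its libraries agreed closely within each letter. Tsc22d3, which encodes the glucocorticoid-induced leucine zipper, was at 8.28 and 8.33 against 9.13 and 9.66 (1.09 ± 0.14, adjusted p = 0.0045). The clock gene Per1, which is also an immediate early and glucocorticoid-responsive gene, was at 4.22 and 4.76 against 5.75 and 5.77 (1.27 ± 0.21, adjusted p = 0.0306). A further 7 are named after their values were seen. Cd69, an early activation antigen of leukocytes, was at 5.43 and 5.50 against 6.52 and 7.03 (1.31 ± 0.18). Ctla2a, a cysteine protease inhibitor (0.88 ± 0.12), Plaur, the urokinase receptor (1.35 ± 0.23), Sik1, a salt-inducible kinase (1.18 ± 0.19), Plk2, a polo-like kinase (1.36 ± 0.21), and Rgcc, a cell cycle regulator (1.31 ± 0.21), had, with Cd69, adjusted p-values of 0.00642 to 0.0362. Junos (1.40 ± 0.18) is annotated antisense to Jun and overlaps it by 689 bases, and since strand use is not given in the sources used here, its reads cannot be told apart from those of Jun.

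The other 2 genes, Gm37352 and Gm26532, flank one microRNA cluster. Gm37352 (chr8:84200869-84203049, GENCODE M21 on GRCm38, plus strand, type TEC) was counted 168 and 183 times in letter A and 400 times in Id2+/+ letter B, and stood at 3.55 and 3.38 against 4.68 and 5.53 log2 CPM (1.64 ± 0.28, adjusted p = 0.0362). Gm26532 (chr8:84208920-84209609, plus strand, a lincRNA) had 104 and 119 reads in letter A and 401 and 580 in letter B, or 2.84 and 2.75 against 4.69 and 4.94 log2 CPM (2.02 ± 0.27, adjusted p = 0.00642). They lie 5870 bases apart on one strand, and the genes for miR-23a, miR-27a and miR-24-2 lie between them, with the last mature sequence ending 24 bases before Gm26532. The mature 3p forms are shown because they identify the locus, and the seed, bases 2 to 8, is in capitals. MicroRNAs were not analysed here.
miR-23a-3p, chr8:84208563-84208583: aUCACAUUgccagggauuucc
miR-27a-3p, chr8:84208727-84208747: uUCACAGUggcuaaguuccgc
miR-24-3p, chr8:84208875-84208896: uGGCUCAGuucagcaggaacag

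The 3 seeds differ from each other.

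Glucocorticoid response genes had the highest median of the lists after the immediate early genes. Of its 12 tested genes, 10 were higher in the fit and 3 were called (Dusp1, Tsc22d3 and Per1). Both letter B values lay above both letter A values in 6 (50%) and below in 0, against 16.1% and 16.8% of all tested genes. The median was 0.68 (0.46 in Id2+/+ and 0.79 in Id2Δ/Δ HSCs). Without Id2Δ/Δ letter A the median was 0.28. Dusp1 belongs to the immediate early list too. Fkbp5, a sensitive target of the glucocorticoid receptor, was at 6.53 and 6.73 log2 CPM in letter A and at 6.60 and 6.68 in letter B, and Zbtb16 at 3.51 and 3.85 against 3.53 and 3.47. Sgk1 (4.33 and 4.03 against 4.84 and 4.71) and Klf9 (5.61 and 5.04 against 6.11 and 6.12) were above letter A in both genotypes without passing the test, at adjusted p-values of 0.761 and 0.331.

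Of 17 tested clock genes 1, Per1, was called. Both letter B values lay above both letter A values in 5 (29.4%) and below in 2 (11.8%), against 16.1% and 16.8% of all tested genes. The median was -0.04 in Id2+/+ and 0.67 in Id2Δ/Δ HSCs. The fitted median of 0.24 was 0.01 without Id2Δ/Δ letter A, 0.10 without Id2Δ/Δ letter B, 0.38 without Id2+/+ letter B and 0.60 without Id2+/+ letter A. Arntl, the core activator of the clock, was at 5.60 and 5.57 log2 CPM in letter A and 5.39 and 5.41 in letter B, and Dbp, an output gene with a strong daily rhythm, at 4.52 and 3.81 against 4.27 and 4.55. Per2 was at 5.52 and 4.85 against 5.24 and 5.71, with the letters in opposite order in the genotypes. Arntl, Dbp and Per2 did not pass the test, with adjusted p-values of 0.966, 0.978 and 0.965.

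Classical stress programs had smaller differences. Of 17 heat shock genes 0 were called by limma, with 6 higher and 0 lower at an unadjusted p-value under 0.05. Of all 15895 tested genes 554 were higher and 381 lower at that limma threshold. Among the heat shock genes 4 (23.5%) had both letter B values above both letter A values and 1 (5.88%) had both below. Over all tested genes these shares were 16.1% and 16.8%. The heat shock median was 0.12. It was 0.0 without Id2+/+ letter A, 0.07 without Id2Δ/Δ letter B, 0.19 without Id2+/+ letter B and 0.24 without Id2Δ/Δ letter A. Hsph1, a co-chaperone of HSP70, was at 6.11 and 6.23 log2 CPM in letter A and 6.65 and 6.87 in letter B (0.59 ± 0.16, adjusted p = 0.44), and Dnajb1 at 7.34 and 7.30 against 7.66 and 7.99 (0.50 ± 0.14, adjusted p = 0.586). The most abundant of them, Hsp90ab1, was at 11.02 and 11.08 against 10.98 and 10.84. Hspa5, the chaperone of the endoplasmic reticulum, lay just outside the threshold, at 9.08 and 8.89 against 9.62 and 9.69 (0.67 ± 0.12, adjusted p = 0.0535). Of the 21 genes on its list of unfolded protein and integrated stress response genes 0 were called, with 2 higher and 0 lower at an unadjusted p-value under 0.05, 9 had both letter B values above and 2 below both letter A values, which is 42.9% and 9.52% against 16.1% and 16.8% of all tested genes. The median was 0.13, or 0.08 without Id2Δ/Δ letter B.

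Among NF-κB and cytokine genes 1 of 17, Nfkbiz, was called, and the median was 0.10 (0.16 without Id2+/+ letter A). Both letter B values lay above both letter A values in 7 (41.2%) and below in 3 (17.6%), against 16.1% and 16.8% of all tested genes. Over the 16 at 1 CPM or more in each letter these counts were 6 and 3. Nfkbia, the direct feedback inhibitor of NF-κB, was at 7.0 and 7.02 log2 CPM in letter A and 7.12 and 7.25 in letter B, and Nfkb1 at 7.33 and 7.72 against 7.41 and 7.30, so the letters overlapped for Nfkb1. Tnf had 9 and 3 reads in letter A and 17 and 53 in letter B. Among 23 p53 targets 1, Plk2, was called, and the median was 0.14. Both letter B values lay above both letter A values in 9 (39.1%) and below in 2 (8.7%). Over the 21 at 1 CPM or more in each letter these counts were 7 and 2. Cdkn1a, the cyclin-dependent kinase inhibitor p21, was at 2.92 and 1.27 against 3.88 and 3.49 (1.58 ± 0.39, adjusted p = 0.337).

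Of interferon response genes, which pIpC induces, 40 were tested and 0 were called by limma, with 0 in either direction at an unadjusted p-value under 0.05, and the median was -0.04 (-0.04 in Id2+/+ and -0.05 in Id2Δ/Δ HSCs, and -0.10 to -0.04 with 1 library left out). Both letter B values lay above both letter A values in 6 (15%) and below in 10 (25%). Over all tested genes these shares were 16.1% and 16.8%. Their summed level was 4090 and 4310 CPM in letter A and 4060 and 3910 CPM in letter B. Of NRF2 and metallothionein genes 0 of 14 were called, with 0 higher and 1 lower at an unadjusted p-value under 0.05, and a median of -0.02, which ran from -0.15 without Id2+/+ letter A to 0.05 without Id2Δ/Δ letter A.

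**Figure D2:**
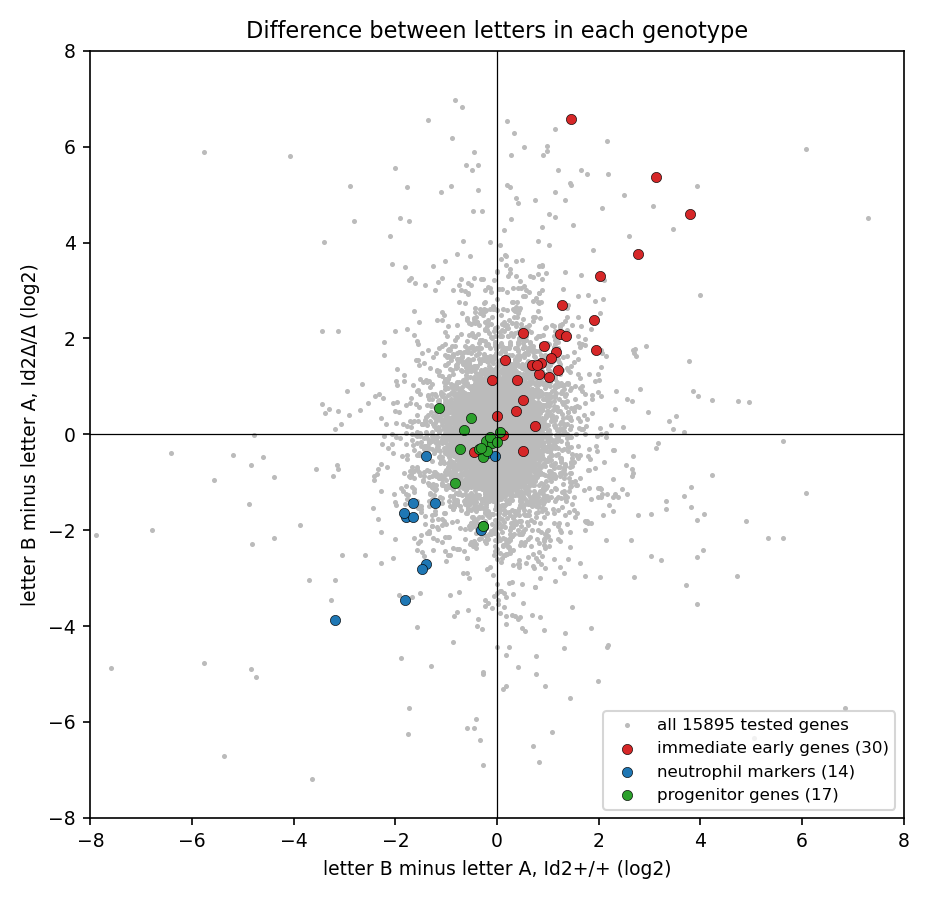
Letter B minus letter A (log2) in Id2+/+ (x axis) and in Id2Δ/Δ HSCs (y axis) for the 15895 tested genes in grey, with the immediate early (30), neutrophil (14) and progenitor (17) genes in colour. The grey cloud shows hardly any slope (r = 0.0592), while 25 of the 30 immediate early genes lie in the upper right and all 14 neutrophil genes in the lower left. These counts include genes whose direction the filter favoured. Nr4a3 and Cyr61 passed it only through letter B, and Lcn2, Mmp8 and Cxcr2 only through letter A.

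Across all tested genes the difference between letters in one genotype said little about that in the other. The correlation of the 2 differences over genes was 0.0592, and 0.144 over the 7377 genes that averaged 32 CPM or more, and 50% of genes had the same sign. These are descriptions over genes, which are not independent and share the 4 libraries. The SD of the difference over genes was 0.569 in Id2+/+ and 0.829 in Id2Δ/Δ HSCs. The Id2Δ/Δ letter A library had no reads for 606 listed genes, and the Id2Δ/Δ letter B library for 326. In Id2+/+ letters A and B these counts were 183 and 170. The part of the Id2Δ/Δ letter A library in the larger spread was not tested.

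Of the 20 neutrophil markers on the list, 19 were listed, 14 passed the filter and 3, S100a8, S100a9 and Ngp, were called lower in letter B. Lcn2, Mmp8 and Cxcr2 averaged under 1 CPM in letter B and passed the filter only through letter A, so that these 3 had to be lower there. Of the 11 at 1 CPM or more in each letter, 11 were below 0 in the fit and 10 had both letter B values below both letter A values, with a median of -1.32. Of all 19, 16 had lower deposited values in letter B in both genotypes. This counts Retnlg, which had no reads in either Id2Δ/Δ library and differs there only in the value deposited for no reads. The median over the 14 was -1.62 (-1.43 in Id2+/+ and -1.73 in Id2Δ/Δ HSCs). With a pseudocount of 1 CPM, which damps low genes, the median was -1.02. S100a8, one subunit of the cytosolic protein calprotectin, was at 5.18 and 4.75 log2 CPM in letter A and at 3.79 and 2.04 in letter B (-2.05 ± 0.32, adjusted p = 0.0195). Its partner S100a9 had 382 and 252 reads in letter A against 155 and 34 in letter B (-2.15 ± 0.37, adjusted p = 0.0398). Ngp, neutrophilic granule protein, was at 5.30 and 4.20 against 3.47 and 2.55 (-1.74 ± 0.27, adjusted p = 0.0176). In a bulk library fewer cells of a type and less RNA per cell cannot be told apart. The lineage antibodies of the study's sort include Mac-1 and Gr-1, which neutrophils carry. Whether any neutrophils passed the gate was not tested in these bulk libraries.

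The other granule genes are given by the stage at which they are made. Of the genes of secondary granules, Ltf (lactoferrin) had 215 and 147 reads in letter A and 77 and 53 in letter B, Camp (cathelicidin) 152 and 83 against 47 and 7, and Lcn2 (lipocalin 2) 90 and 51 against 11 and 3. Their differences were -1.55, -2.64 and -3.53, none past the threshold, with adjusted p-values of 0.27, 0.206 and 0.238. Mmp8, the neutrophil collagenase, had 19 and 40 reads against 6 and 11, and Cxcr2, a chemokine receptor of mature neutrophils, 37 and 54 against 13 and 15. The primary granule genes Mpo, Elane and Prtn3, which progenitors also express, were at 3.29 and 4.76, 1.68 and 3.03, and 7.08 and 7.23 log2 CPM in letter A and at 3.01 and 2.84, 0.46 and 1.60, and 6.88 and 6.84 in letter B, with fitted differences of -1.10, -1.32 and -0.29. Prtn3 and Lyz2, the lysozyme of myeloid cells, made up most of the summed level of the list, which was 481 and 498 CPM in letter A and 350 and 311 CPM in letter B. Lyz2 was at 7.44 and 7.79 against 7.39 and 7.34 (-0.25 ± 0.15, adjusted p = 0.905). The difference between early and late genes was not tested.

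Chil3, a chitinase-like protein, was the 1 tested member whose letters overlapped, at 2.64 and 1.87 log2 CPM in letter A and 2.33 and -0.12 in letter B, and Ly6c2, which monocytes share, was at 3.08 and 2.33 against 1.68 and 1.88. Of the 5 members under the filter, Mmp9 had 28 and 0 reads in letter A and 15 and 2 in letter B, and Retnlg 28 and 0 against 11 and 0. Fcnb had 22 and 3 against 6 and 5, Ctsg 1 and 23 against 4 and 26, and Cebpe 7 and 14 against 2 and 11. The direction was not shared by these 5 genes in both genotypes.

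**Figure D3:**
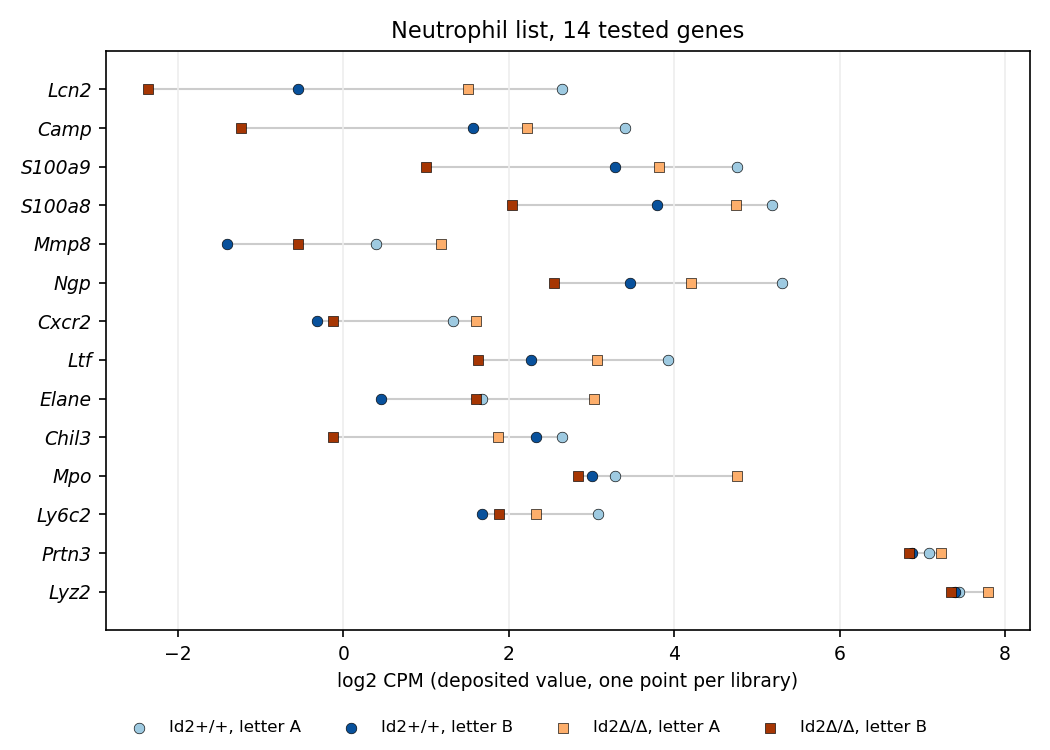
Deposited log2 CPM (x axis) of the 14 tested neutrophil markers (y axis, ordered by the fitted difference), one point per library, with circles for Id2+/+ and squares for Id2Δ/Δ HSCs and dark colours for letter B. Both letter B points lie left of both letter A points in 13 genes, with differences from -3.53 for Lcn2 to -0.25 for Lyz2. Lcn2, Mmp8 and Cxcr2 passed the filter only through letter A and so had to be lower in letter B. Of the 11 genes at 1 CPM or more in each letter, 10 are separated in this way.

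Immediate early and neutrophil genes moved in opposite directions between the same libraries, and the part of the neutrophil RNA in the difference of the immediate early genes was not tested. The neutrophil list summed to at most 498 CPM, which covers the listed markers only and does not measure all RNA of neutrophils. The immediate early list summed to 4040 to 4540 CPM in letter A and to 8920 to 11700 CPM in letter B.

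Defining markers of lymphoid cells were largely missing from the table. Of 17 B cell markers 6 were listed and 4 tested, and Cd79a, Pax5, Ms4a1 and Igkc were not listed. Of 17 T and NK cell markers 3 were listed, without Cd3e or Trac. Monocyte, macrophage and dendritic cell markers had 0 of 9 called, with 0 higher and 1 lower at an unadjusted p-value under 0.05, and a median of -0.14, which ran from -0.23 without Id2+/+ letter B to -0.08 without Id2Δ/Δ letter B. Cd74, the invariant chain of MHC class II and the most abundant of them, was at 8.08 and 7.56 log2 CPM in letter A and 7.98 and 7.58 in letter B. Erythroid markers had a median of 0.08 (-0.18 without Id2Δ/Δ letter B and 0.18 without Id2+/+ letter B) with 0 of 16 called, and megakaryocyte and platelet markers one of -0.01 (-0.06 without Id2+/+ letter A and 0.10 without Id2+/+ letter B) with 0 of 15 called, by limma, with 1 lower erythroid gene and 0 platelet genes at an unadjusted p-value under 0.05. Slc4a1 was not listed.

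Cxcl12 and Sparc, stromal transcripts named after their values were seen, passed the filter only through letter A. Cxcl12, the chemokine by which marrow stroma retains HSCs, had 105 and 102 reads in letter A against 0 and 22 in letter B, at least 37.8-fold lower in Id2+/+ HSCs. Sparc, a matrix protein, had 30 and 31 reads against 7 and 4. Neither passed the test, with adjusted p-values of 0.266 and 0.771. The list of endothelial and stromal markers, which held 9 tested genes, had a median of 0.05 in Id2+/+ and -0.66 in Id2Δ/Δ HSCs, and of -0.08 in the fit over the 7 at 1 CPM or more in each letter. Pecam1, which HSCs express themselves, was at 6.13 and 6.16 log2 CPM in letter A and 6.17 and 5.84 in letter B. Cdh5, Lepr and Pdgfra were not listed.

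Of the 34 tested HSC genes 0 were called by limma, with 5 higher and 1 lower at an unadjusted p-value under 0.05, 8 had both letter B values above and 3 below both letter A values, which is 23.5% and 8.82% against 16.1% and 16.8% of all tested genes, and the median was 0.04, or 0.01 without Id2Δ/Δ letter A and 0.11 without Id2Δ/Δ letter B. Kit, the stem cell factor receptor used in the sort, was at 11.08 and 10.19 log2 CPM in letter A and 10.93 and 10.55 in letter B. Vwf, which marks platelet-biased HSCs, was at 6.85 and 6.84 against 7.54 and 7.55, with nearly the same values in both genotypes, and did not pass the test (0.70 ± 0.14, adjusted p = 0.111). Clec1a, a C-type lectin, was at 5.89 and 6.04 against 5.58 and 5.12 (-0.62 ± 0.20, adjusted p = 0.671).

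No progenitor gene was called. Of 17 tested genes, 16 were below 0 in the fit, 13 were lower in letter B in both genotypes and 11 (64.7%, against 16.8% of all tested genes) had both letter B values below both letter A values, with a median of -0.28 (-0.28 in Id2+/+ and -0.18 in Id2Δ/Δ HSCs), and 0 were called by limma, with 0 higher and 3 lower at an unadjusted p-value under 0.05. Without Id2+/+ letter A the median was -0.16. Cd53, a leukocyte tetraspanin, was at 5.22 and 5.36 log2 CPM in letter A and 4.38 and 4.34 in letter B (-0.93 ± 0.21, adjusted p = 0.238). Cdk6, a G1 cyclin-dependent kinase, was at 9.05 and 8.97 against 8.74 and 8.68 (-0.30 ± 0.12, adjusted p = 0.771). Mpo is a member of the neutrophil list as well. For Flt3 and Cd48, whose proteins are among those the sort excluded, the letters lay close or overlapped, with Flt3 at 5.63 and 5.63 against 5.62 and 5.47 and Cd48 at 3.04 and 1.40 against 1.89 and 1.96.

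Of 47 tested S phase genes 34 were above 0 in the fit, 19 had both letter B values above and 2 below both letter A values, 0 were called by limma, and 4 were higher and 0 lower at an unadjusted p-value under 0.05. These are 40.4% and 4.26% of the list without overlap, against 16.1% and 16.8% of all tested genes. The median was 0.11, or 0.13 in Id2+/+ and 0.04 in Id2Δ/Δ HSCs. It was 0.02 without Id2+/+ letter A, 0.06 without Id2Δ/Δ letter B and 0.19 without Id2Δ/Δ letter A. Exo1, an exonuclease of DNA repair, was at 4.76 and 4.50 log2 CPM in letter A and 5.42 and 5.67 in letter B (0.92 ± 0.21, adjusted p = 0.238). Mcm6, a subunit of the replicative helicase, was at 9.20 and 9.21 against 9.38 and 9.35 (0.16 ± 0.11, adjusted p = 0.949). The 54 G2/M genes had a median of 0.02, with 8 (14.8%) above and 4 (7.41%) below in both genotypes without overlap and 0 called, and 1 higher and 0 lower at an unadjusted p-value under 0.05. Their median turned with the library left out, at -0.13 without Id2+/+ letter A, -0.06 without Id2Δ/Δ letter B, 0.16 without Id2+/+ letter B and 0.20 without Id2Δ/Δ letter A.

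Transcripts of the inactive X and of the Y chromosome were found in every library. Xist, transcribed from the inactive X chromosome, was at 8.51 and 9.04 log2 CPM in letter A and 8.81 and 8.93 in letter B. The Y-linked Ddx3y was at 6.32 and 5.97 against 6.32 and 5.75, and Kdm5d at 5.35 and 4.35 against 4.65 and 3.77. Of 6 tested genes 0 were called, with 0 higher and 1 lower at an unadjusted p-value under 0.05, and the letters overlapped in all 6.

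**Figure D4:**
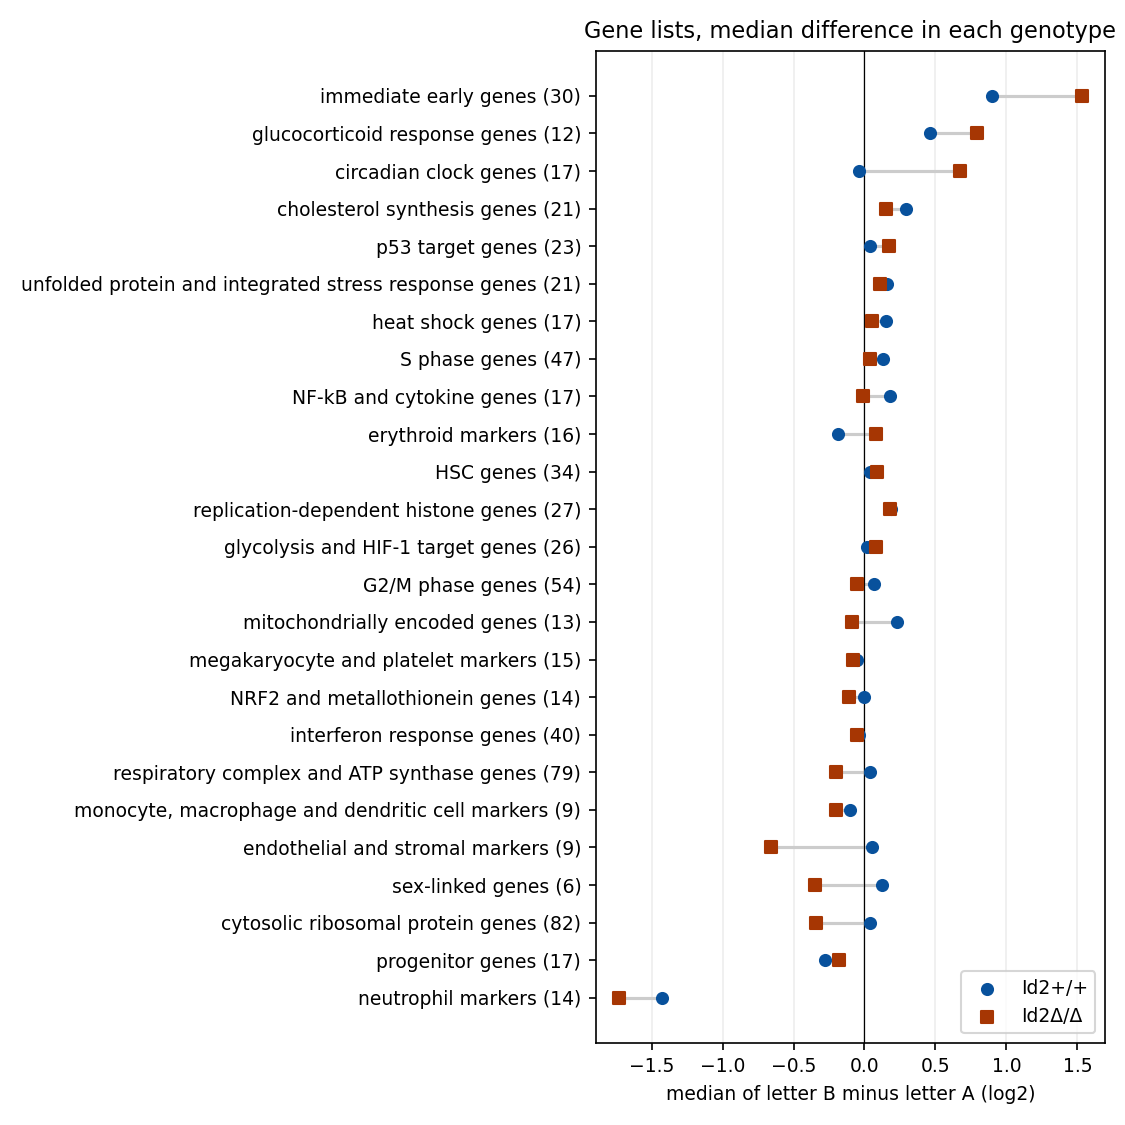
Median of letter B minus letter A (log2, x axis) over the tested members of each list (y axis, with the number of genes), in Id2+/+ (circles) and Id2Δ/Δ HSCs (squares), for lists with at least 5 tested genes. The immediate early list lies at 0.90 and 1.53 and the neutrophil list at -1.43 and -1.73.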

How the data were processed

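RNA-Seq was measured in 4 libraries of sorted HSCs. The authors deposited log2 CPM values for 19354 genes; the columns sum to 999980 to 999996 CPM and share a median of 3.92, and their sorted values agree to within 0.1 at 88.4% of ranks, as after quantile normalization. The submitters' processing notes name CASAVA 1.8.4, Trimmomatic 0.30, TopHat2 2.0.8, STAR and RSEM and the builds mm9 and NCBIM37 without their roles. Strand use and the counting of reads shared by gene copies are not given in the sources used here.

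Below 32 CPM the rank of a distinct value gives whole reads, and depth followed from these. Higher reads were not recovered, so no count model was run. The deposited log2 values of genes averaging 1 CPM or more were fitted with limma 3.58.1 in R 4.3.3 (genotype and letter as terms, intensity trend, two-sided, Benjamini-Hochberg). The threshold for a call was an adjusted p-value of 0.05. In 1 simulated data set the fit recovered most of the changes put in, but the false share of its calls was above the threshold. Coordinates and gene types are from GENCODE M21 on GRCm38, matched by identifier for 99.7% of genes, and differ in build from mm9.

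The comparison, the 28 lists and the tests were chosen with earlier results of these data known. Named were, in each direction, up to 12 called genes by size or the smallest p-values among genes whose letters did not overlap with a mean of at least 5 CPM, the 3 largest such members and the most abundant member of each list, any immediate early, clock or sex-linked gene, and Id2. Some genes under this rule are left out of the text, and other genes are named as list or sort markers or after their values were seen. Lists were described by counts and medians. Medians over members at 1 CPM or more in each letter were added after seeing the data. Alternatives left out the genotype term or a library, added a pseudocount of 0.1 or 1, changed the filter, scaling, trend, threshold or variance prior, or corrected for transcript length. The fits without a library also had no genotype term.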

Additional observations from a re-analysis of the deposited data

Results flagged for a closer look

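In 6 of the 93 tested genes that are named here the letters differed in opposite directions in the genotypes by at least 0.2 on the log2 scale, as they did in 2621 (16.5%) of all tested genes. Cd48, whose protein the sort excluded, had a difference of -1.15 in Id2+/+ and 0.55 in Id2Δ/Δ HSCs, which are 1.71 apart. The clock genes Nr1d2 (-0.30 and 0.34, which are 0.64 apart), Per2 (-0.29 and 0.86, 1.14 apart) and Dbp (-0.25 and 0.74, 0.99 apart) were lower in letter B in Id2+/+ and higher in Id2Δ/Δ HSCs. The immediate early gene Gadd45b went the other way, with 0.50 in Id2+/+ and -0.35 in Id2Δ/Δ HSCs, a difference of -0.85. So did mt-Rnr2, the large ribosomal RNA of mitochondria, with 0.23 and -0.23, a difference of -0.46. None of these differences between genotypes was tested, since 1 library per genotype and letter leaves no residual for an interaction.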

How the results depend on the processing

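The 30 calls depend on how the spread is estimated. Without the genotype term (no replicate block, genotype being the block) limma called 17 genes, all 17 higher and 0 lower, with 465 and 329 at an unadjusted p-value under 0.05; with the block and a length correction it called 29. With no filter 14 were called, 14 higher and 0 lower, and with a mean of at least 10 CPM 59, 50 higher and 9 lower. A pseudocount of 1 CPM gave 5 lower genes. Without the intensity trend 0 were called. With 1 library left out, which leaves a lone library assumed to vary like the others, 0 to 2 were called, 0 to 2 higher and 0 to 0 lower. At an unadjusted p-value under 0.05, 935 genes passed, 554 higher and 381 lower. All 30 genes kept their direction under every setting in which they were tested, 29 of them at 10 CPM, and 29 of the 59 calls there are among the 30. Apart from the median-ratio rescaling and the length correction this was fixed in advance, since the letters did not overlap in any of the 30. The median of the immediate early list ranged from 0.98 to 1.35 and that of the neutrophil list from -1.75 to -1.02.

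Among genes that missed the threshold, Hspa5, Vwf, Klf4, Fosl2, Ier2, Klf9, Cd53 and Exo1 passed it with the filter at 10 CPM, Hspa5 also with a pseudocount of 1 CPM and with median-ratio rescaling, and Cxcl12 with a pseudocount of 1 CPM. In 14 of the 93 tested genes that are named here, none called in the fit of all 4 libraries, the direction turned, and the cause was not tested. With the length correction Cd74 was at 0.01, Fkbp5 at -0.01 and Nr1d2 at -0.01. Over the 4 fits with 1 library left out the difference ran from -1.12 to 0.52 for Cd48, -0.30 to 0.22 for Cd74, -2.37 to 0.07 for Chil3, -0.11 to 0.60 for Dbp, -0.39 to 0.17 for Ddx3y, -0.09 to 0.11 for Fkbp5, -0.29 to 0.44 for Gadd45b, -0.34 to 0.55 for Kit, -0.09 to 0.19 for Myc, -0.36 to 0.02 for Nfkb1, -0.32 to 0.37 for Nr1d2, -0.31 to 0.03 for Pecam1, -0.05 to 0.62 for Per2 and -0.17 to 0.36 for Xist. Depth limits the low genes, since 3 reads are 0.159 to 0.211 CPM.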

Other observations

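Genes of protein synthesis and respiration had unlike medians in the genotypes. The 82 cytosolic ribosomal protein genes had a median difference of -0.34 between letters in Id2Δ/Δ and of 0.04 in Id2+/+ HSCs, with a summed level of 46200 and 55500 CPM in letter A and 46100 and 44900 CPM in letter B. Rpl3, the most abundant, was at 11.18 and 11.31 log2 CPM in letter A and 11.08 and 10.86 in letter B. The 79 genes of the respiratory complexes and ATP synthase had medians of -0.20 and 0.04, with Atp5b at 9.53 and 9.66 against 9.48 and 9.53. In both lists limma called 0 genes, with 0 higher and 2 lower, and 0 higher and 1 lower, at an unadjusted p-value under 0.05. The fitted medians of both lists turned to 0.02 and 0.07 without Id2Δ/Δ letter A. The difference between the genotypes was not tested.

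Cholesterol synthesis genes had a median of 0.15 (0.07 without Id2+/+ letter B and 0.31 without Id2+/+ letter A). By limma 0 of 21 were called, with 2 higher and 0 lower at an unadjusted p-value under 0.05. Both letter B values lay above both letter A values in 8 (38.1%) and below in 2 (9.52%), against 16.1% and 16.8% of all tested genes. Over the 20 at 1 CPM or more in each letter these counts were 7 and 2. Idi1, an isomerase of the pathway, was at 3.75 and 2.78 log2 CPM in letter A and 4.20 and 3.78 in letter B (adjusted p = 0.771). The median was 0.03 for glycolysis and HIF-1 targets and 0.01 for mitochondrially encoded genes, with 0 of 26 and 0 of 13 called, and the latter ran from -0.07 without Id2+/+ letter A to 0.25 without Id2Δ/Δ letter A. Replication-dependent histone genes had a median of 0.04 (-0.17 without Id2+/+ letter A and 0.45 without Id2Δ/Δ letter A) with 0 of 27 called. Car1, an erythroid carbonic anhydrase, was at 2.94 and 3.03 log2 CPM in letter A and 0.58 and 2.20 in letter B (adjusted p = 0.622).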
